A study of Saccharomyces cerevisiae with 2 samples.

Results

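The 6 annotated copies of the 5S rRNA gene, RDN5-1 to RDN5-6, and SCR1 were compared between npl3Δ and wild type cells of Saccharomyces cerevisiae, and with the 25S and 18S rRNA. They were taken by name from the count table and made up 7 of its 7127 features. The members were chosen by their counts in these libraries, known from an earlier analysis of the same contrast, so that their values are given as a description without a test between genotypes. The table held 1 library of npl3Δ, in which the gene of the mRNA guard protein Npl3 is deleted, and 1 library of wild type. Both cultures were diluted to 1e+07 cells/ml, grown at 25 °C and harvested at 2e+07 cells/ml. Stranded libraries were made from 200 ng of total RNA each, and rRNA was not depleted. In the study, wild type means a laboratory strain that carries auxotrophic markers, mostly BY4741. Which strains were sequenced was not given in the sources used here. With 1 library per genotype, no difference has a replicate check, and a difference between the strains, cultures or library preparations cannot be told apart from one due to the deletion.

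The 5S rRNA is the small RNA of the large ribosomal subunit that RNA polymerase III transcribes, while the other rRNAs are cut from a 35S precursor made by RNA polymerase I. In yeast, 5S genes lie within the rDNA repeats between the 35S units and on the opposite strand. Transcription factor TFIIIA, encoded by PZF1, starts assembly of the polymerase on a 5S gene, and the RNA enters the pre-ribosome together with the proteins Rpl5 and Rpl11. SCR1 is the RNA of the signal recognition particle (SRP), which guides ribosomes that make secretory proteins to the endoplasmic reticulum, and it is also a product of RNA polymerase III. This polymerase stops in runs of T in the coding strand.

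The 5S copies differed in sequence at the 3' end only, which bears on how reads could be assigned to them. RDN5-1 and RDN5-6 are annotated with 121 nt and are identical. RDN5-2, RDN5-3, RDN5-4 and RDN5-5 are annotated with 119 nt and are identical to each other. All copies share the first 117 bases. Counted from 1 at the 5' end, the substitutions that lead from RDN5-1 to RDN5-2 in a window of 121 nt are A118G, C120T and T121G. Of these, A118G lies within the annotated RDN5-2, and C120T and T121G lie beyond its end. An example of each kind and RDN5-6 are shown with the flank downstream, from the RefSeq genome R64 (chrXII:459676-459815, chrXII:468813-468952 and chrXII:489349-489488, + strand), with the positions of the substitutions in capitals.
RDN5-1: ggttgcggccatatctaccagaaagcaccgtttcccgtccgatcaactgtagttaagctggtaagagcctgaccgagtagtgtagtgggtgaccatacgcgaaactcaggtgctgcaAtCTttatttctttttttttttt
RDN5-2: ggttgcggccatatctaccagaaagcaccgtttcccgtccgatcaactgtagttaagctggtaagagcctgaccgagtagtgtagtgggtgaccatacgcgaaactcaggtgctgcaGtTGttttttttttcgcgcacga
RDN5-6: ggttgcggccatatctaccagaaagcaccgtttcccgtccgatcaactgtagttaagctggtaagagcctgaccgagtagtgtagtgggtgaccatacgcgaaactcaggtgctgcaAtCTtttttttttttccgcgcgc
Runs of at least 5 T were searched in the coding strand within 50 nt downstream of each annotated end. The longest run measured 29 nt after RDN5-1, 10 nt after RDN5-2 to RDN5-5 and 11 nt after RDN5-6. Such a run of at least 5 T followed 98.5% of 275 nuclear tRNA genes and 25.4% of 6111 matched features, and a run of at least 10 T followed 9.45% and 2.06% of them. The flanks also grouped the copies. Upstream of the gene, RDN5-2 was identical to RDN5-1 over 8258 nt, whereas RDN5-3, RDN5-4 and RDN5-5 were identical to RDN5-6 over 409, 147 and 3799 nt.

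SCR1 is a single gene of 522 nt on chromosome V (chrV:441987-442508, + strand, R64). Its first part (chrV:441987-442136, + strand) is shown because every stretch of SCR1 with the length of a read occurs at 1 place of the genome, unlike the 5S rRNA.
SCR1 start: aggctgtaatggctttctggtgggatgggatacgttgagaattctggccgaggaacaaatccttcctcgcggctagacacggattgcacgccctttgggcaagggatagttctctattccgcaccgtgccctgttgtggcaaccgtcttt
The end of the gene and its flank (chrV:442489-442548, + strand) hold runs of T, which are in capitals. The longest run outside the annotated gene measured 7 nt.
SCR1 end: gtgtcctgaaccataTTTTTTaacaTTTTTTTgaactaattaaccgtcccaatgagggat

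The sequence set a limit on the comparison of single copies. Of the 72 stretches of 50 nt, the length of the reads, in RDN5-1 and in RDN5-6, 68 occurred at 6 places in the genome and 4 at 2 places. In RDN5-2 to RDN5-5, 68 of 70 stretches occurred at 6 places and 2 at 4 places. No stretch within an annotated 5S copy was therefore unique to it. In SCR1, all 473 stretches occurred at 1 place. The 18S rRNA lay between these, with all 1751 stretches at 2 places, and the 25S rRNA had 2831 of 3347 stretches at 2 places and 516 at 3. How reads with several places were assigned was not given in the sources used here.

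The table held 401753674 counts in npl3Δ and 421789474 in wild type, of which the 22 rRNA features, the 5S copies among them, took 389792298 in npl3Δ and 411426370 in wild type. RDN37-1 and RDN37-2, the 35S features, span the mature rRNAs. In npl3Δ, RDN37-1 had 97112623 counts, close to those of RDN25-1 (65858362) and RDN18-1 (31251874) together. The totals therefore appear to count reads of the mature rRNAs again for the 35S features and are not numbers of reads. The 2 features inside the 35S rRNA gene, with 5286580 counts in npl3Δ and 5563786 in wild type, were kept apart. The other 7103 features, SCR1 among them and called here those other than rRNA, held 6674796 counts in npl3Δ and 4799318 in wild type, a ratio of 1.39. NPL3 had 3 counts in npl3Δ and 1345 in wild type, which fits the labels. A single gene, ATG26, took 34.5% of the counts outside rRNA in npl3Δ and 23.5% in wild type. BDF1 had 50981 counts in npl3Δ and 505 in wild type. Intervals given with ratios are 95% exact conditional binomial (Clopper-Pearson) intervals. They cover counting error only, because there is 1 library per genotype, and they treat reads as independent. The reads carry no molecular identifiers, so that duplicates from amplification may be counted as well.

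All 5S copies had higher counts in npl3Δ than in wild type. RDN5-1 (XII, 459676 to 459796) had 7379 counts in npl3Δ and 5240 in wild type, a ratio of 1.41 (1.36 to 1.46). RDN5-2 (468813 to 468931) had 7350 in npl3Δ and 5121 in wild type, a ratio of 1.44 (1.38 to 1.49). RDN5-3 (472465 to 472583) had 7374 in npl3Δ and 5093 in wild type, a ratio of 1.45 (1.40 to 1.501). In these copies the npl3Δ count exceeded the wild type count by more than the counting error. For RDN5-4 (482045 to 482163), 7251 counts in npl3Δ stood against 5166 in wild type, a ratio of 1.40 (1.35 to 1.45). For RDN5-5 (485697 to 485815) the counts were 7260 in npl3Δ and 5050 in wild type, a ratio of 1.44 (1.39 to 1.49). For RDN5-6 (489349 to 489469), 7307 in npl3Δ and 5044 in wild type gave a ratio of 1.45 (1.40 to 1.502). The counts of all copies were thus higher in npl3Δ, where the lowest copy had 7251 counts, than in wild type, where the highest had 5240, but the copies share nearly all of their sequence and give 1 comparison. The mean over the copies was 7320 counts in npl3Δ and 5119 in wild type, a ratio of 1.43 (1.38 to 1.48). Summed over the copies, 43921 counts in npl3Δ and 30714 in wild type gave the same ratio with an interval of 1.41 to 1.45, which holds if no read was counted for more than 1 copy.

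SCR1 had 49036 counts in npl3Δ and 34760 in wild type, a ratio of 1.41 (1.39 to 1.43). This is close to the ratio of the 5S rRNA, although the reads of SCR1 have 1 place in the genome. All 7 members had a ratio above 1, as did 84.0% of the 6118 features outside rRNA that passed a minimum of 10 counts summed over both libraries. None of the 7 was past 1.5-fold in either direction, against 42.4% of these features past 1.5-fold higher in npl3Δ and 3.74% past 1.5-fold lower.

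**Figure D1:**
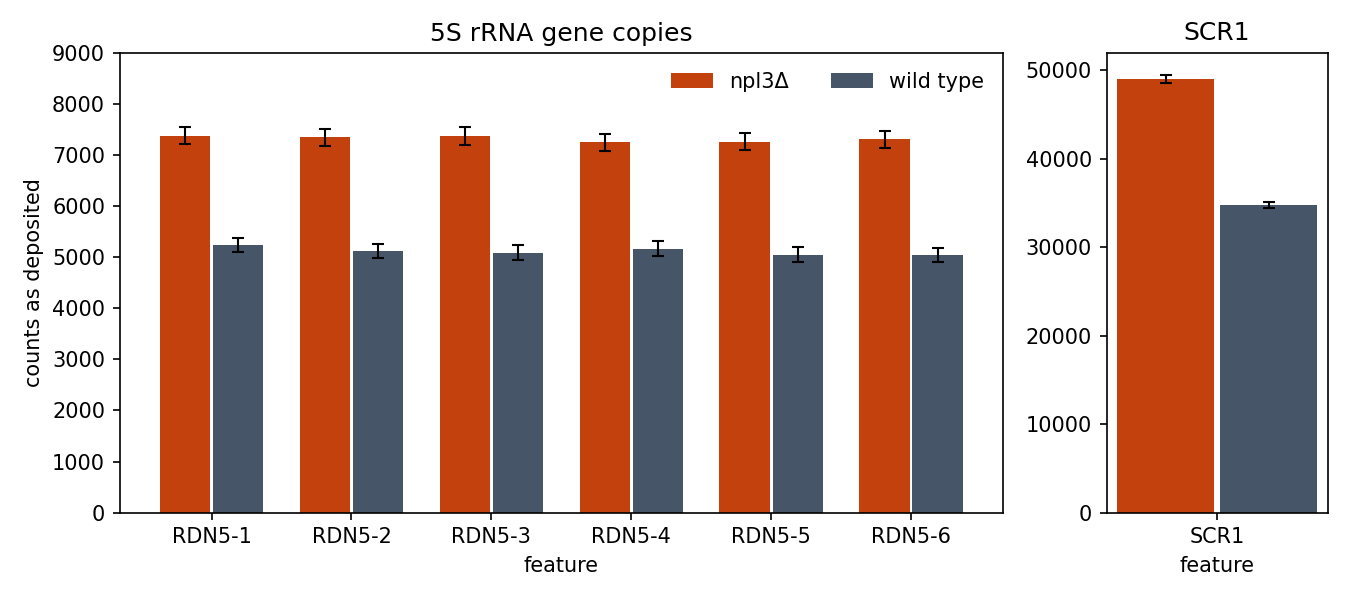
Counts as deposited (y axis, each panel with its own scale from 0) of the 6 copies of the 5S rRNA gene (left) and of SCR1 (right) in 1 npl3Δ library (left bar of each pair) and 1 wild type library (right bar). Error bars are 95% exact Poisson intervals for counting error. The 5S copies lie between 7251 and 7379 counts in npl3Δ and between 5044 and 5240 in wild type.

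Among themselves, the copies hardly differed. Each took between 16.5% and 16.8% of the 5S counts in npl3Δ and between 16.4% and 17.1% in wild type, where an equal division gives 16.7%. The highest copy exceeded the lowest by 1.77% in npl3Δ and by 3.89% in wild type. The SD over the 6 copies was 56.3 counts in npl3Δ and 74.7 in wild type, beside a Poisson SD of 85.6 in npl3Δ and 71.5 in wild type. The variance thus was 0.432 of the mean in npl3Δ and 1.09 of it in wild type. Reads divided at random between equal places give a variance near the mean. How the reads were assigned was not tested. The longer and the shorter copies also differed little in count, with a quotient of their means of 1.005 in npl3Δ and 1.007 in wild type. An effect of the annotated length was not tested. The mean of RDN5-1 and RDN5-6, which are 121 nt long, was 7343 counts in npl3Δ and 5142 in wild type, and that of the 119-nt copies was 7309 in npl3Δ and 5108 in wild type. Both kinds had a ratio of 1.43.

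The ratios of the copies ranged over 0.05 on the log2 scale. In none of the 15 pairs of copies did the interval for the quotient of their ratios exclude 1, and the largest quotient was 1.03. Because the copies share nearly all stretches of read length, these values describe how reads were distributed and not the output of single genes. They are 6 readings of 1 RNA in 1 library, not replicates. For comparison, ASP3, a gene of asparaginase that lies in 4 copies between the 5S copies and whose stretches all occur at 4 places, had a variance of 1.33 of the mean in npl3Δ and 0.954 of it in wild type. The 2 copies of the 18S rRNA differed by far more than the Poisson SD, with a variance of 421 times the mean in npl3Δ and 55.7 times in wild type, although they differed by only 0.521% in count in npl3Δ and 0.179% in wild type. In npl3Δ and wild type, the variance was 115 and 6.24 times the mean for the 25S rRNA and 105 and 336 times for the 5.8S rRNA. For the 35S features it was 0.996 and 4.05 times. Each of these values rests on 2 copies.

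The 25S and 18S rRNA, products of RNA polymerase I, had lower counts in npl3Δ. RDN25-1 and RDN25-2 had 65858362 and 65981539 counts in npl3Δ, against 67636496 and 67665552 in wild type. The ratio of their means was 0.974. RDN18-1 and RDN18-2 had 31251874 and 31089774 counts in npl3Δ, against 34749273 and 34687087 in wild type. Their ratio was 0.898. The 5.8S rRNA, which is cut from the same precursor and is close to the 5S rRNA in length, had a mean of 289214 counts in npl3Δ and 406484 in wild type, a ratio of 0.712 (0.708 to 0.715). The 5S rRNA and SCR1 therefore lay on the other side of 1 from all mature products of the 35S precursor.

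Quotients within a library do not depend on its depth. Per 1000000 25S counts, the mean 5S copy had 111 counts in npl3Δ and 75.7 in wild type, a ratio of 1.47 (1.42 to 1.52). Single copies ranged between 1.44 and 1.49. Per 1000000 18S counts it had 235 counts in npl3Δ and 147 in wild type, a ratio of 1.59 (1.54 to 1.65). Single copies ranged between 1.56 and 1.61 here. The difference between these denominators is that of the 18S rRNA to the 25S rRNA, whose quotient was 0.473 in npl3Δ and 0.513 in wild type. SCR1 behaved alike. It had 744 counts per 1000000 25S counts in npl3Δ and 514 in wild type, a ratio of 1.45 (1.43 to 1.47). Per 1000000 18S counts it had 1573 in npl3Δ and 1001 in wild type, a ratio of 1.57 (1.55 to 1.59). Per 5.8S count, the ratio was 2.01 (1.94 to 2.08) for the 5S rRNA and 1.98 (1.95 to 2.01) for SCR1.

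Set against each other, the members did not differ beyond counting error. The mean 5S copy had 0.149 counts per SCR1 count in npl3Δ and 0.147 in wild type, a ratio of 1.01 with an interval of 0.975 to 1.05. Single copies per SCR1 ranged between 0.995 and 1.03. The interval, which treats the mean copy as a count, holds differences in both directions, so that equal change was not shown.

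**Figure D2:**
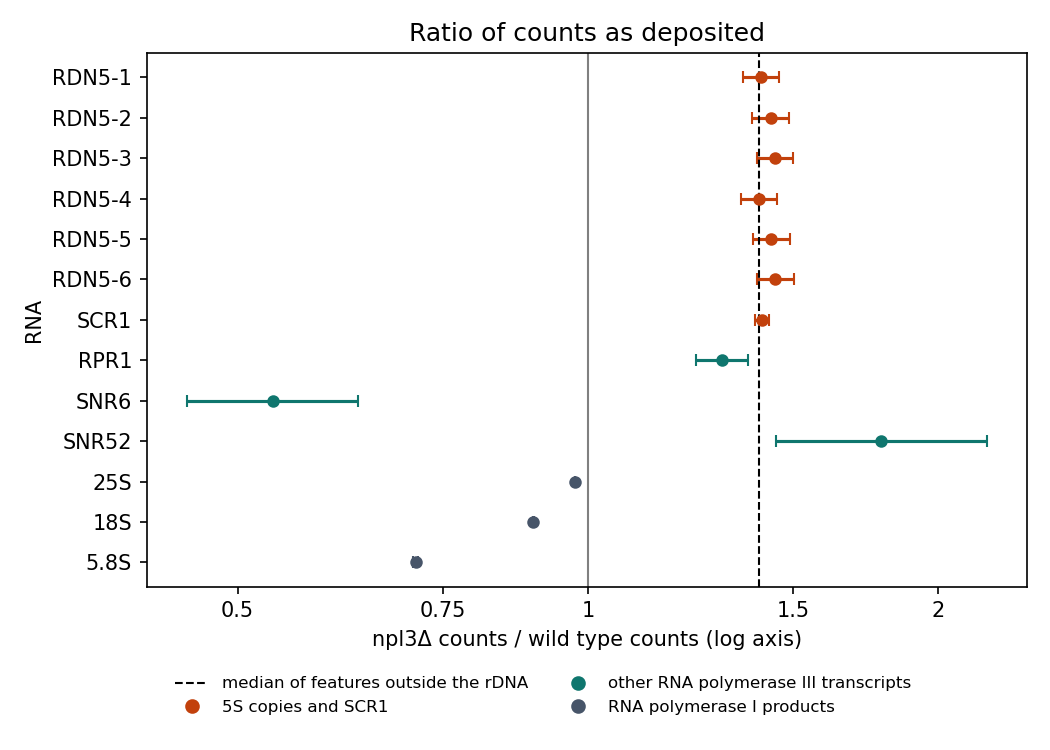
Ratio of npl3Δ counts to wild type counts as deposited (x axis, log scale) for single RNAs (y axis), with 95% exact intervals for counting error. The dashed line is the median ratio of 1.40 over 6118 features outside the rDNA. The 5S copies and SCR1 lie at this median, and the 25S, 18S and 5.8S rRNA lie below 1.

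Levels of different RNAs were compared as counts per kb of the annotated feature. The mean 5S copy had 61171 counts per kb in npl3Δ and 42777 in wild type, and SCR1 had 93939 in npl3Δ and 66590 in wild type. The 25S rRNA had 19411057 counts per kb in npl3Δ and 19920796 in wild type. The mean 5S copy thus stood at 0.315% of the 25S level per kb in npl3Δ and at 0.215% in wild type, and the sum of the 6 copies at 0.945% of the summed 25S copies in npl3Δ and 0.644% in wild type. A ribosome holds a 5S and a 25S rRNA in equal number, so that the counts do not follow the amount of these RNAs. The 5.8S rRNA, also equal in number, stood at 9.43% of the 25S level per kb in npl3Δ and 12.9% in wild type. The ratios of these short RNAs to the 25S rRNA went in opposite directions, upward for the 5S rRNA and downward for the 5.8S rRNA.

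Against RNAs outside the rDNA, the members lay near the median. The features other than rRNA had 1.39 times as many counts in npl3Δ as in wild type. Divided by this, the ratio was 1.03 (0.992 to 1.07) for the mean 5S copy and 1.01 (1.00 to 1.03) for SCR1. Summed over the copies, the 5S interval was 1.01 to 1.04, which holds if no read was counted for more than 1 copy. With ATG26 and BDF1 left out of the denominator, the ratios were 1.21 for the 5S rRNA and 1.20 for SCR1. With both genes kept and the 2 features inside the 35S rRNA gene added, an alternative chosen after seeing the data, the ratios were 1.24 and 1.22. Divided by the counts other than rRNA without these changes, none of the 7 members was past 1.5-fold, against 16.3% of the features higher and 12.1% lower. Divided by the ratio of the median feature, 1.40, none was past it either, against 15.9% higher and 12.3% lower. As deposited, the 5S rRNA stood at percentile 52.0 of the 6118 features and SCR1 at percentile 50.6. Among the 502 features with a mean of at least 1000 counts, however, the median ratio was 1.11, and the 5S rRNA stood at percentile 81.5 and SCR1 at 79.9. The 25S rRNA stood at percentile 14.2 of all features and 24.1 of the abundant ones. Whether the members were higher in npl3Δ thus depended on which RNAs were taken as the standard. In bulk RNA, more of a member and less of the others cannot be told apart.

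**Figure D3:**
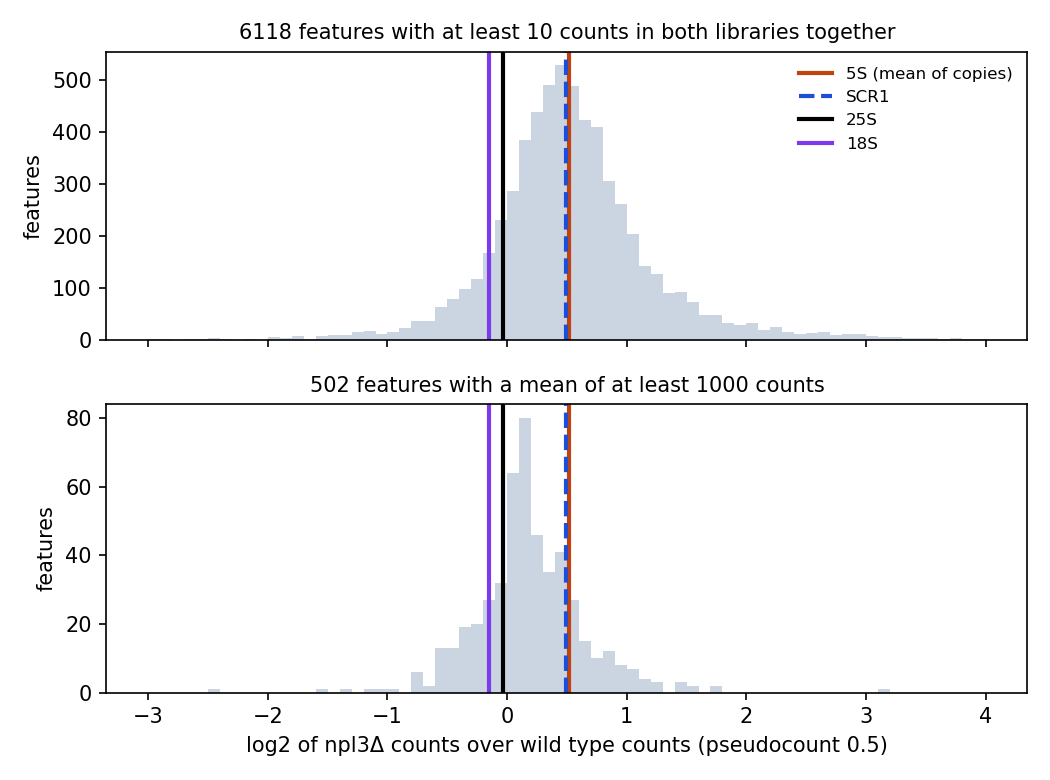
Number of features (y axis) by log2 ratio of npl3Δ to wild type counts as deposited (x axis), for all 6118 features (top) and for the 502 with a mean of at least 1000 counts (bottom), where vertical lines mark the 5S rRNA, SCR1 and the 25S and 18S rRNA. The 53 features beyond the axis were not drawn. The 5S rRNA and SCR1 lie at the middle of the upper distribution and in the upper part of the lower one.

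Among 438 features with at least 1000 counts in each library, those with the ratio most like the 5S rRNA were PDI1, SNR19 and RPB2. PDI1, encoding protein disulfide isomerase, had 1866 counts in npl3Δ and 1310 in wild type, a ratio of 1.42. SNR19, the U1 spliceosomal RNA, had 16166 in npl3Δ and 11254 in wild type, and RPB2, encoding a subunit of RNA polymerase II, had 1776 in npl3Δ and 1236 in wild type. Both had a ratio of 1.44. The features closest to SCR1 were SEC7, HAC1 and YMR046C, each with a ratio of 1.41. The likeness was measured as the difference in log2 ratio between 2 libraries only, in which many features have similar values.

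Other transcripts of RNA polymerase III had ratios on both sides of those of the members. Their spread cannot be set against that of the members, which are SCR1 and copies of the 5S rRNA with shared reads. Some of them also had few counts. Of 5 listed RNAs besides tRNAs, 4 had at least 10 counts, of which 2 were past 1.5-fold higher in npl3Δ and 1 lower, beside 42.4% and 3.74% of all features. Their median ratio was 1.52, beside 1.40 for all features. RPR1, the RNA of RNase P, had 3373 counts in npl3Δ and 2586 in wild type, a ratio of 1.30 (1.24 to 1.37). The 5S rRNA was higher relative to RPR1 by a ratio of 1.10 (1.03 to 1.17) and SCR1 by 1.08 (1.03 to 1.14). SNR6, the U6 spliceosomal RNA, had 215 counts in npl3Δ and 401 in wild type, a ratio of 0.536 (0.452 to 0.634). It was the only one of these 4 RNAs with a lower count in npl3Δ. The snoRNA SNR52 had 257 counts in npl3Δ and 144 in wild type, a ratio of 1.78 (1.45 to 2.20). RNA170 had 20 counts in npl3Δ and 4 in wild type, and ZOD1 had none in both libraries. Relative to SNR6, the 5S rRNA had a ratio of 2.67 (2.25 to 3.17), and relative to SNR52 it had 0.801 (0.647 to 0.990).

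Transfer RNAs, the most numerous products of this polymerase, were hardly captured. Of 275 tRNA genes of the nuclear genome, 39 had no counts in both libraries and 114 had at least 10. The 24 mitochondrial tRNA genes, which this polymerase does not transcribe, had none. The nuclear tRNA genes together held 3226 counts in npl3Δ and 2382 in wild type, less than a single 5S copy, with a ratio of 1.35 (1.28 to 1.43). Of the 114 genes, 53 (46.5%) were past 1.5-fold higher and 20 (17.5%) lower, beside 42.4% and 3.74% of all features, and their median ratio was 1.37. Many of them had few counts, such as tN(GUU)O1 with 5 in npl3Δ and 8 in wild type, a ratio of 0.625 (0.161 to 2.17). At such counts, counting error alone can carry a ratio past 1.5-fold in either direction. Of 9 noncoding RNAs made by RNA polymerase II, 8 were found in the table, and SNR7-L and SNR7-S are forms of the same U5 RNA with the same counts. With U5 taken once, all 7 RNAs had a ratio above 1, as did 84.0% of all features, and their median was 1.40. Past 1.5-fold higher were 2, LSR1 (U2) with 1.74 and NME1 (RNase MRP) with 1.75, beside 42.4% of all features. The ratios of the members lay within the range of these RNAs.

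The mRNAs of the proteins that act on the members were counted as well. The list for the 5S ribonucleoprotein held 9 genes, of which 3 were past 1.5-fold higher and 0 lower, beside 42.4% and 3.74% of all features, with a median ratio of 1.11. PZF1, encoding TFIIIA, had 98 counts in npl3Δ and 53 in wild type, a ratio of 1.85. RRS1, which brings the 5S particle into the pre-ribosome together with RPF2, had 324 in npl3Δ and 204 in wild type, and REX1, a nuclease that trims the 3' end of the 5S rRNA, had 179 in npl3Δ and 105 in wild type. RPL5, which encodes the main protein partner of the RNA, had 7635 counts in npl3Δ and 8625 in wild type, a ratio of 0.885 (0.858 to 0.913). It thus lay below the ratio of the 5S rRNA. RPL11A and RPL11B, whose sequences are nearly alike so that reads may be exchanged, both had a ratio of 1.11.

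For SRP and its receptor, 5 of 8 genes were past 1.5-fold higher and 0 lower, with a median ratio of 1.60. Those past it were SRP14 with 1.68, SRP68 with 1.90, SRP72 with 1.60, SEC65 with 1.76 and the gene of the β subunit of the receptor with 1.60. SRP54, encoding the subunit that binds the signal sequence, had 541 counts in npl3Δ and 490 in wild type, a ratio of 1.10. The counts of the 8 genes together, 2899 in npl3Δ and 2022 in wild type, had a ratio of 1.43. This is near that of SCR1 itself, but also near the median ratio of 1.40 over all features. The share of genes past 1.5-fold stands beside 42.4% of all features.

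In the transcription machinery, 6 of 10 genes of TFIIIC, TFIIIB and their regulator were past 1.5-fold higher and 0 lower, beside 42.4% and 3.74% of all features, with a median ratio of 1.63. TFC3, a TFIIIC subunit, was highest with 741 counts in npl3Δ and 209 in wild type, a ratio of 3.55. It lies on chromosome I, where 85 features had a median ratio of 2.75, against 1.39 on the other chromosomes. The part of the chromosome in the value of TFC3 was not tested. MAF1, the repressor of RNA polymerase III, had 104 counts in npl3Δ and 51 in wild type, a ratio of 2.04. Of 10 subunits specific to RNA polymerase III, 2 were past 1.5-fold higher, RPC17 and RPC11, and 0 lower, with a median ratio of 1.05. RPC10, which was on the list but encodes a subunit shared with RNA polymerases I and II, had a ratio of 1.67. The members thus lay above the median of the polymerase subunits and below that of its factors, without a test of these differences.

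Features that overlap a 5S copy, and the neighbour of SCR1, had far fewer counts than the member beside them. Predicted genes antisense to RDN5-2, RDN5-3, RDN5-4 and RDN5-5 overlap them by 105 nt each and had 14 to 20 counts in npl3Δ and 8 to 11 in wild type. Per nt, this was at most 0.245% of the 5S copy in npl3Δ and 0.194% in wild type, so that the counts are those of the strand of the 5S rRNA. The neighbour of SCR1, YER137C, lies 167 nt away on the opposite strand and had 37 counts in npl3Δ and 23 in wild type.

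The ratio of the members changed with the standard more than with the copy. Over 10 choices of a denominator, none included, the 5S ratio lay between 1.02, with the median feature, and 2.01, with the 5.8S rRNA. SCR1 moved along with it, between 1.01 and 1.98, since a denominator acts on both alike. Leaving out any copy gave a 5S ratio between 1.43 and 1.44. The ratio could hardly move here because the copies share nearly all stretches of read length.

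**Figure D4:**
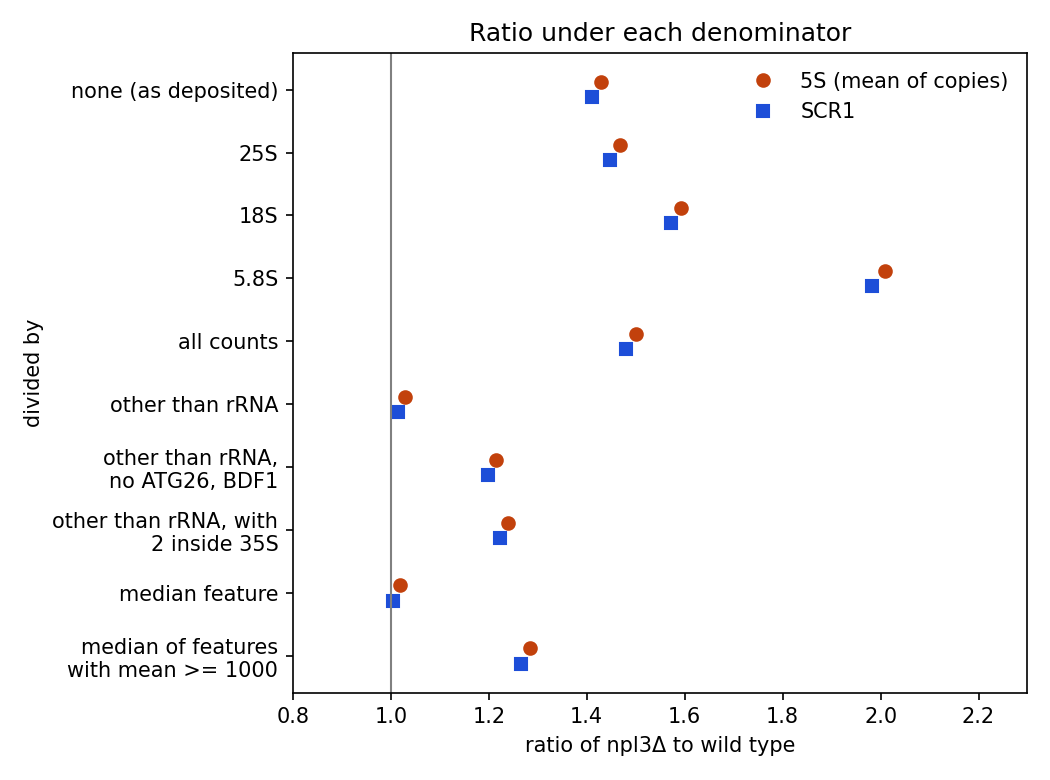
Ratio of npl3Δ to wild type (x axis) of the 5S rRNA (mean of the copies, circles) and SCR1 (squares) under each denominator (y axis). All ratios lie above 1, closest to it with the median feature and the counts other than rRNA, and farthest with the 5.8S rRNA.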

How the data were processed

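Counts per feature were deposited by the authors as whole numbers without normalization, from paired reads of 50 nt that were mapped with HISAT2 to sacCer3 (R64) and counted with featureCounts. Versions, the annotation used and the assignment of reads with several places were not given in the sources used here. Groups came from the genotype in the labels. Features inside the 35S rRNA gene (2) were kept out of the counts other than rRNA. The coverage file, which covers the 35S rRNA, was not used, and 0 columns of samples were left out.

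Deposited counts of npl3Δ were divided by those of wild type. The study's methods relate these counts without naming a scaling, and none was applied here. Because the study also normalized to the 18S rRNA in a comparison of rRNA regions, ratios to it are given as well. For rRNAs, the mean of the listed copies was used. Intervals of ratios are exact conditional binomial ones (Clopper-Pearson, 95%). Quotients with SCR1, 5.8S rRNA, RPR1, SNR6 and SNR52 carry those of the exact odds ratio, and in quotients with the 25S and 18S rRNA the rRNA count was taken as fixed. No test was made between genotypes. Features outside rRNA entered with log2 ratios (pseudocount 0.5) if the libraries together had at least 10 counts, and the 1.5-fold limit was applied to these. Of the 7127 features, 6169 matched the RefSeq annotation, all 7 members among them. Stretches of 50 nt were searched on both strands of the genome.

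The members and lists were chosen with earlier results of these data known. Named were the members, rRNAs, NPL3, list members with extreme values and the 3 features with at least 1000 counts in each library whose log2 ratio lay closest. ATG26, BDF1, ASP3, the neighbouring genes and the remaining list members were named after their values were seen. Alternatives concerned the denominator, the copies used, the minimum count and the pseudocount. After the values were seen, mitochondrial tRNA genes, SNR7-S and RPC10 were taken out of their lists. The intervals were tried on simulated Poisson counts, the model that they assume, so that this could check the calculation only. The simulation held no spread between cultures. Scripts ran in Python 3.11.15 with scipy 1.17.1 and numpy 2.4.6. Tables were handled with pandas 2.3.3, and figures were drawn with matplotlib 3.10.9.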

Additional observations from a re-analysis of the deposited data

How the results depend on the processing

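The 5S and SCR1 ratios changed in size with the denominator. Divided by counts on features other than rRNA, the 5S ratio of 1.43 became 1.03. Its interval was 0.992 to 1.07 from the mean copy, which holds 1, and 1.01 to 1.04 from the summed copies, which does not. The latter holds if no read was counted for more than 1 copy. With ATG26 and BDF1 also left out, the 5S ratio was 1.21. It was 1.59 with the 18S rRNA, 1.501 with the total of the table, 1.02 with the median feature, and, in alternatives chosen after seeing the data, 2.01 with the 5.8S rRNA, 1.28 with the median of features with a mean of at least 1000 counts and 1.24 with counts other than rRNA that include the 2 features inside the 35S rRNA gene. SCR1, at 1.41 as deposited, had 1.01, 1.20, 1.57, 1.48, 1.01, 1.98, 1.27 and 1.22 in the same order, and 1.45 with the 25S rRNA. The total of the table holds the 35S features as well as the rRNAs within them. Of 37 alternatives, 17 left a ratio within its counting interval, a number of features within 1.5 times or the spread of the copies as it was, 20 moved the value further and 0 put the npl3Δ to wild type ratio of the 5S rRNA or SCR1 below 1. The 17 include the choices of 5S copies, which could hardly move the ratio because the copies share nearly all stretches of read length. Among denominators, only the 25S rRNA left the 5S ratio, then 1.47, within the interval of the mean copy. The quotient of the 5S rRNA to SCR1 was 1.01, with 1.02 and 0.998 in its alternatives.

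Features past 1.5-fold higher numbered 2596 as deposited and 1000 when divided by counts other than rRNA. Those lower numbered 229 and 738, and 117 with a minimum of 100 counts. No paired analysis was possible because there was 1 library per genotype. For the same reason the spread between cultures is unknown, and at the depth of the 5S copies counting error alone is several percent of a ratio. Stretches of read length within the genes do not separate the single copies.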

Other observations

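Predicted genes lie 7 nt upstream of 4 of the 5S copies and on the same strand. They were chosen after their values were seen. YLR156W, before RDN5-3, had 71 counts in npl3Δ and 25 in wild type, a ratio of 2.84 (1.78 to 4.68). YLR157W-E, before RDN5-4, had 49 in npl3Δ and 9 in wild type, a ratio of 5.44 (2.65 to 12.6). YLR159W, before RDN5-5, had 80 in npl3Δ and 34 in wild type, a ratio of 2.35 (1.56 to 3.63). For YLR161W, before RDN5-6, the counts were 75 in npl3Δ and 41 in wild type, a ratio of 1.83 (1.23 to 2.75). All 4 ratios lay above that of the 5S copy beside them. The sequence upstream of RDN5-3, RDN5-4 and RDN5-5 is identical to that of RDN5-6 over 409, 147 and 3799 nt, and the part of shared reads in these values was not tested.

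Downstream of RDN5-6, YLR162W had 234 counts in npl3Δ and 345 in wild type, a ratio of 0.678 (0.572 to 0.803), and RRT15 had 319 in npl3Δ and 522 in wild type, a ratio of 0.611 (0.530 to 0.704). The ASP3 genes, which lie 385 nt from RDN5-2 to RDN5-5 on the opposite strand, had 1131 to 1212 counts in npl3Δ and 1179 to 1253 in wild type, with ratios from 0.903 to 0.989. Higher counts than RDN5-4 itself were found for YLR157C-B and YLR157C-A, 443 nt from it on the opposite strand. YLR157C-B had 49359 counts in npl3Δ and 43467 in wild type, a ratio of 1.14 (1.12 to 1.15). YLR157C-A had 16856 in npl3Δ and 14924 in wild type, a ratio of 1.13 (1.10 to 1.15). Genes within a short distance of the 5S copies therefore had ratios on both sides of 1, while the copies themselves ranged between 1.40 and 1.45. The part of reads shared with other places of the genome, the rDNA among them, was not tested for these genes.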
